A study of Mus musculus with 12 samples.

Results

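The miR-99/100 family and the miR-125 family are microRNAs (miRNAs), short RNAs that guide the silencing of messenger RNAs. In the mouse table analysed here the first family has the members mmu-miR-99a-5p, mmu-miR-99b-5p and mmu-miR-100-5p and the second has mmu-miR-125a-5p and mmu-miR-125b-5p. These 5 miRNAs were picked by name from a table of tag counts, a tag being 1 sequenced small RNA, and are 5 of the 1060 mature miRNAs in it. All 5 passed the filter on low counts, which left 431 miRNAs to be tested.

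The tissue was the basolateral amygdala (BLA), the amygdala nucleus where a tone and a shock become associated, of 12 C57BL/6J males aged 10 weeks, with 3 mice in each of 4 groups. The F group (fear memory formation) was conditioned with 3 tones, each paired with a foot shock of 0.6 mA. The E group (extinction) was conditioned likewise and after 24 h was given 2 extinction sessions of 18 tones each, and the RE group (retrieval-extinction) also heard 1 retrieval tone 1 h before its extinction. The control group (C) was not shocked, and all mice were of 1 inbred strain without a transgene named in the sources. Tissue was collected 1 h after the last training, so that E and RE tissue was taken on a later day than F and C tissue. Each library came from 1 mouse and held 1093194 to 2353896 tags. Sample labels name the amygdala and the study's methods describe its dissection, whereas the submitters' design text speaks of retina. The amygdala is taken as the tissue here.

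Members of the miR-125 family are the vertebrate counterparts of lin-4 of the worm Caenorhabditis elegans, the founding miRNA. In many animals miR-100 and miR-125 genes lie close to a let-7 gene, and the trio is often made from a common primary transcript. miR-99 and miR-100 are known to lower mTOR, the kinase that sets the rate of protein synthesis. In neurons of rodents miR-125b lowers Grin2a, an NMDA receptor subunit, and miR-125a lowers Dlg4, the postsynaptic scaffold PSD-95.

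The mature sequences are shown because the members differ by few bases and because target choice rests on the seed, bases 2 to 8 from the 5′ end, printed in capitals. They are RefSeq sequences of build GRCm38.p6 and were found for 5 of 5 members at 6 loci. The sequences of the opposite strand of 2 hairpins and of 2 related miRNAs are added because some of the results turn on them.
mmu-miR-99a-5p: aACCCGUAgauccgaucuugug
mmu-miR-99b-5p: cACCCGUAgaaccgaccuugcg
mmu-miR-100-5p: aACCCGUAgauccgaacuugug
mmu-miR-125a-5p: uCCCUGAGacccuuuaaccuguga
mmu-miR-125b-5p: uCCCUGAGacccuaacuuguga
mmu-miR-351-5p: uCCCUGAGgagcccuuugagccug
mmu-let-7e-5p: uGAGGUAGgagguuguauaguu
mmu-miR-99b-3p: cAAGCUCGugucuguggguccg
mmu-miR-125b-1-3p: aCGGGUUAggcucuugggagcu

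The members fell into 2 seed groups, ACCCGUA for miR-99a, miR-99b and miR-100 and CCCUGAG for miR-125a and miR-125b. A seed of the members was found in 6 listed miRNAs, the sixth being miR-351-5p, which shares the miR-125 seed and its first 8 bases. Counting positions from 1 at the 5′ end, miR-99a and miR-100 differed by the single substitution U16A, with the base of miR-99a first. A read with an error at that position, or one trimmed before it, could be given to either, so the split of tags between miR-99a and miR-100 is uncertain. miR-99b differed from miR-99a by A1C, U11A, U16C and U21C, and miR-125b and miR-125a shared their first 13 bases and were 22 and 24 bases long. Of the miRNAs that the authors predicted, 0 lie in or contain a member.

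The hairpins lie in 3 clusters on the forward strand, each with a let-7 gene (positions from GENCODE M21, build GRCm38). On chromosome 16, Mir99a (chr16:77598936-77599000), Mirlet7c-1 (chr16:77599657-77599750) and Mir125b-2 (chr16:77646273-77646343) lie in introns of the noncoding gene Mir99ahg. On chromosome 9, Mir100 (chr9:41531425-41531504), Mirlet7a-2 (chr9:41536716-41536811) and Mir125b-1 (chr9:41581926-41582002) lie in introns of the noncoding gene 3110039I08Rik. On chromosome 17, Mir99b (chr17:17830188-17830257) and Mirlet7e (chr17:17830352-17830444) lie in an intron of the protein-coding gene Spaca6, and Mir125a (chr17:17830812-17830879) overlaps an exon of a Spaca6 transcript. The Mir99b and Mir125a hairpins are 554 bases apart, against 47272 bases between Mir99a and Mir125b-2 and 50421 bases between Mir100 and Mir125b-1. miR-125b-5p is identical from both its loci, so its count is their sum. let-7a-5p and let-7c-5p also have further loci outside these clusters.

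Of the 12 libraries, 4 stood apart from the rest. They were F replicate 1, E replicate 2, RE replicate 4 and C replicate 2, so 1 in each group. They were separated at the widest gap on a first principal component drawn from 406 miRNAs, without the members and the let-7 and miR-98 miRNAs. This component took up 63.0% of the variance, against 9.23% for the second. In the 4 libraries the most abundant miRNA was let-7g-5p, and in the other 8 it was miR-148a-3p. On the log2 scale the 4 libraries differed from the other 8 by 0.25 for let-7g-5p, whose ranges overlapped. For miR-148a-3p, which was among the 406 miRNAs, they differed by −2.90, without overlap. Since the members did not draw this split, their values in it are given below, as a description without a test.

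Marker miRNAs of brain tissue were present. The tested markers were among the 406 miRNAs that drew the split. A sum over markers follows its most abundant member, so single markers are given where they parted from the sum. All 4 neuron markers (miR-124-3p, miR-9-5p, miR-128-3p and miR-138-5p) had tags in every library. Their sum was 62929 to 97079 counts per 1000000 tags (CPM) in the 4 libraries and 72075 to 103997 CPM in the other 8. miR-124-3p alone had 1184 to 1329 CPM in the 4 and 683 to 838 CPM in the 8. The log2 difference between the sets was 0.74 for miR-124-3p and 0.39 for miR-138-5p, but −0.08 for miR-9-5p and −0.18 for miR-128-3p. The 3 oligodendrocyte markers summed to 1927 to 3635 CPM in the 4 libraries and 2244 to 5046 CPM in the other 8, and the 4 erythrocyte markers to 241 to 1055 CPM in the 4 and 300 to 675 CPM in the 8. The 2 endothelial markers are the strands of the Mir126a hairpin and went opposite ways between the sets, with a log2 difference of −0.95 for the abundant miR-126a-3p and 0.99 for miR-126a-5p. The 2 vessel wall markers summed to 3187 to 9743 CPM in the 4 and 8009 to 27847 CPM in the 8. Of the 4 leukocyte and microglia markers miR-150-5p, the most abundant, was higher in the 4 libraries (log2 difference 0.77), and miR-142a-3p (−0.85), miR-142a-5p (−1.67) and miR-223-3p (−1.11) were lower. Their sum, 333 to 467 CPM in the 4 libraries and 225 to 317 CPM in the other 8, follows miR-150-5p. The 2 choroid plexus markers, miR-204-5p and miR-211-5p, summed to 1030 to 2229 CPM in the 4 libraries and 726 to 1120 CPM in the other 8, and miR-211-5p was at 0 in the 4 libraries and at most 2.76 CPM in the 8. By training group, the neuron sum was 72075 to 79222 CPM in E, below F (83600 to 103997) and RE (92621 to 97079). The oligodendrocyte sum was 1927 to 2969 CPM in F, below E (3635 to 3725) and RE (3181 to 5046). C (2948 to 3518 CPM) also lay below E. The vessel wall sum was 9743 to 27847 CPM in E, above F (4258 to 9314) and RE (4979 to 8224). All other sums and pairs of groups overlapped, and 0 marker tests had an edgeR adjusted p under 0.05. The part of other cell types in the results was not tested, and in bulk tissue fewer cells of a type and less RNA per cell cannot be told apart.

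All 5 members were abundant. Together they held 1.70% to 2.75% of the tags of a library (median 2.15%). By mean CPM miR-100 stood at place 25 of 431 tested miRNAs, miR-99a at 28, miR-99b at 40, miR-125b at 44 and miR-125a at 83. A tag counts once whatever its length, so CPM compares members without a length correction, although adapters join some miRNAs more readily than others. All CPM are scaled by TMM, edgeR's factor for library composition.

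miR-100-5p, the most abundant member in all 12 libraries, had 6205, 8357 and 7799 CPM in F, 7947, 6754 and 8757 CPM in E, 8596, 6775 and 6540 CPM in RE and 7130, 6121 and 8050 CPM in C. miR-99a-5p, its near copy, had 5431, 8175 and 6711 CPM in F, 7740, 4098 and 7335 CPM in E, 6869, 4290 and 6100 CPM in RE and 6107, 5289 and 7596 CPM in C. miR-99b-5p, the member encoded beside let-7e, had 4355, 3146 and 2981 CPM in F, 2973, 4919 and 3891 CPM in E, 2846, 4806 and 2568 CPM in RE and 3332, 4121 and 2946 CPM in C. The ranges of all 4 groups overlapped for each of these members, and the library that stood apart was the lowest of its group for miR-99a and the highest of its group for miR-99b in 4 of 4 groups.

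miR-125b-5p had 4659, 2660 and 2350 CPM in F, 2366, 4090 and 2230 CPM in E, 2422, 4857 and 2307 CPM in RE and 1928, 5086 and 2496 CPM in C. miR-125a-5p, the least abundant member in all 12 libraries, had 1866, 568 and 509 CPM in F, 515, 1525 and 507 CPM in E, 462, 1999 and 497 CPM in RE and 427, 1702 and 575 CPM in C. For both the high value of each group was the library that stood apart, and the other 2 libraries of every group lay close together. As a result the standard deviation of miR-125a within a group was 586 to 877 CPM, around group means of 849 to 986 CPM (n = 3 per group).

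**Figure D1:**
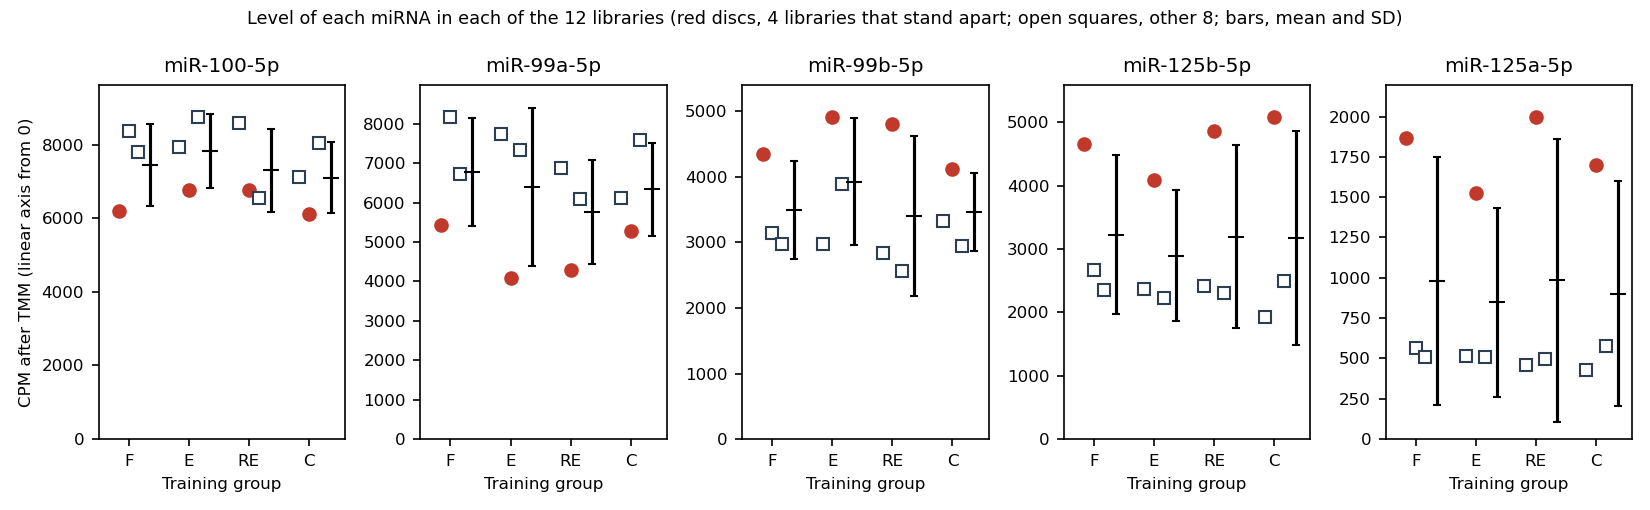
CPM after TMM scaling (vertical axes, linear, from 0) of each member in each library by training group; red discs are the 4 libraries that stand apart, open squares the other 8, and bars the mean and SD of 3 libraries. The red discs of miR-125a-5p sit at 1525 to 1999 CPM and the open squares at 427 to 575 CPM, whatever the group.

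The members kept a fixed order in the 8 libraries, miR-100 above miR-99a, miR-99b, miR-125b and miR-125a. miR-100 exceeded miR-99a, and miR-125b exceeded miR-125a, in 12 of 12 libraries. In F replicate 1 and C replicate 2 miR-125b stood above miR-99b. In E replicate 2 miR-99b stood above miR-99a, and in RE replicate 4 miR-125b and miR-99b both did. miR-100 and miR-99a were neighbours whose ranges over the 12 libraries overlapped (6121 to 8757 CPM for miR-100 and 4098 to 8175 CPM for miR-99a), as did those of miR-99b and miR-125b (2568 to 4919 CPM for miR-99b and 1928 to 5086 CPM for miR-125b).

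Fear memory formation was addressed by F against C, extinction by E against C and updating by RE against C, and the trained groups were set against each other in 3 more comparisons. No member was called in any of them. With edgeR's quasi-likelihood test 0 of 5 members had an adjusted p under 0.05, 0 met the limits of the study's methods, which are an unadjusted p under 0.05 and a log2 fold change of 1 or more in either direction, and 0 had an unadjusted p under 0.05. The comparisons share libraries, the 3 control libraries among them, and so are not independent of each other. The median log2 fold change of the members was 0.070 in F against C beside 0.052 over all tested miRNAs, 0.014 beside 0.0097 in E against C and 0.011 beside 0.058 in RE against C. In E against F it was −0.084 beside −0.084, in RE against F −0.029 beside 0.0012 and in RE against E −0.098 beside 0.049.

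In F against C, 1.16% of the 431 miRNAs met those limits and 8, or 1.86%, had an unadjusted p under 0.05. In E against C the limits were met by 0.696% and 7 miRNAs (1.62%) had such a p, and in RE against C the figures were 2.78% and 24 miRNAs (5.57%). In E against F they were 1.62% and 16 miRNAs (3.71%), in RE against F 0.696% and 9 miRNAs (2.09%) and in RE against E 0.928% and 10 miRNAs (2.32%). Past an adjusted p edgeR called 0 of all miRNAs in each comparison, and DESeq2 called 1, 0, 3, 0, 0 and 1 in the same order of comparisons, with 0 members among them. The groups overlapped for each member in each comparison, whereas over all 431 miRNAs 3.02% lay wholly higher and 1.39% wholly lower in F against C, 2.78% and 1.39% in E against C, 5.57% and 2.09% in RE against C, 3.71% and 3.48% in E against F, 3.02% and 2.55% in RE against F, and 4.18% and 3.48% in RE against E.

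The member with the largest log2 fold change in F against C was miR-125a, at 0.12 (SE 0.78, edgeR adjusted p = 1.00). In E against C it was miR-99b, at 0.18 (SE 0.30, edgeR adjusted p = 0.997), and in RE against C it was miR-99a, at −0.14 (SE 0.29, edgeR adjusted p = 0.998). None of these exceeded its standard error, and 3 of the 6 leading values belonged to miR-125a, the member with the widest spread between replicates. It led E against F, at −0.21 (SE 0.78, edgeR adjusted p = 0.996), and RE against E, at 0.22 (SE 0.78, edgeR adjusted p = 0.999). In RE against F miR-99a led, at −0.24 (SE 0.29, edgeR adjusted p = 1.00). Without the library that stands apart in F, E or RE, some of these values took the other sign: F against C of miR-125a was −0.77 without F replicate 1, E against F was 0.66 without it, and RE against E was −0.82 without RE replicate 4.

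What these libraries could show differed by member. The 95% intervals of the log2 fold change over the 6 comparisons reached from −1.94 to 1.95 for miR-125a and from −1.15 to 1.14 for miR-125b, and stayed within −0.88 and 0.74 for miR-99a, −0.86 and 0.83 for miR-99b and −0.55 and 0.60 for miR-100. A log2 fold change of 1 in size thus lay inside the intervals of miR-125a and miR-125b and was not excluded for them with the group alone in the model. When the split of the libraries was added as a term, the common dispersion was 0.0294 against 0.184 without it, and all intervals of the 5 members lay within −0.54 and 0.45, with standard errors of 0.12 to 0.14. The lowest adjusted p of a member in that edgeR fit was 0.502. In the other 8 libraries alone the lowest belonged to miR-99b in RE against E, with a log2 fold change of −0.35 (SE 0.16, unadjusted p = 0.0462, edgeR adjusted p = 0.264). In that comparison 77 of 424 miRNAs, or 18.2%, had an unadjusted p under 0.05, and 1 of 5 members did. The fit on the 8 libraries lacks 1 mouse of each group. Both it and the term rest on a split drawn from these same counts, so their standard errors and p-values may understate the spread between mice.

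**Figure D2:**
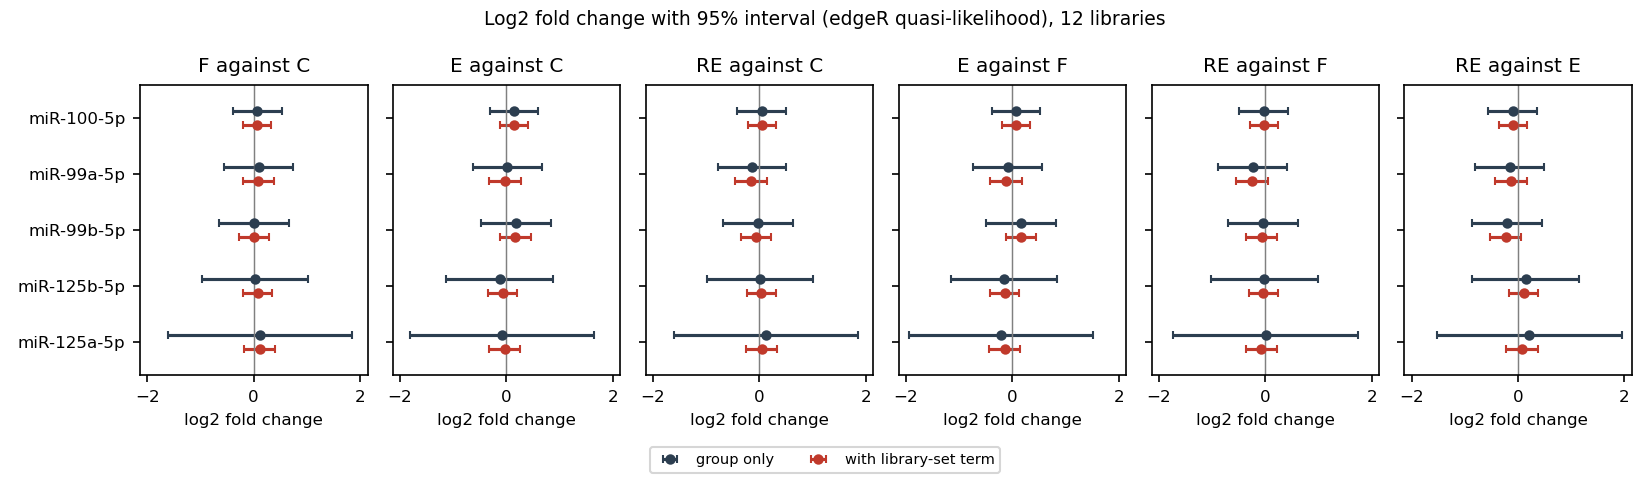
Log2 fold change (horizontal axes) of each member in the 6 comparisons, edgeR estimates with 95% intervals over 12 libraries, from the group alone (dark) and with the split between the 4 libraries and the other 8 as a further term (red). All intervals include 0, and those of miR-125a-5p are the widest without the term and lie within −0.44 and 0.41 with it.

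For each member the difference between the 4 libraries and the other 8 exceeded in size its largest difference between training groups when scaled by TMM or DESeq2's size factors. For miR-100 this turned with library totals (log2 difference −0.11 between the sets, against a largest group difference of 0.23) and with the authors' normalized values (−0.05 against 0.29), and for miR-99a with the authors' values (−0.33 against 0.37). miR-125a averaged 3.49 times as much CPM in the 4 libraries as in the other 8, miR-125b 1.99 times and miR-99b 1.47 times. miR-99a averaged 0.675 times as much and miR-100 0.819 times, so the members of the miR-99/100 family did not move one way. miR-100 was the exception in overlap: its 4 values of 6121 to 6775 CPM met the lowest of the other 8, 6540 CPM in RE replicate 5. For the other members the 4 libraries and the 8 libraries did not overlap.

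On the log2 scale the differences of the 4 libraries from the other 8 were 1.80 for miR-125a, 1.00 for miR-125b, 0.57 for miR-99b, −0.28 for miR-100 and −0.57 for miR-99a, and the median of all 431 miRNAs was 0.03. Counted from the highest difference, miR-125a was at place 16 of 431, miR-125b at 58, miR-99b at 120, miR-100 at 281 and miR-99a at 316. Scaled by library totals all values shifted up together, the median to 0.20, and with the authors' normalized values to 0.26, where miR-100 was at −0.05. No member took the other sign under these scalings or under DESeq2's size factors. Relative to the median of each scaling, miR-100 lay at −0.31 and miR-99a at −0.60.

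**Figure D3:**
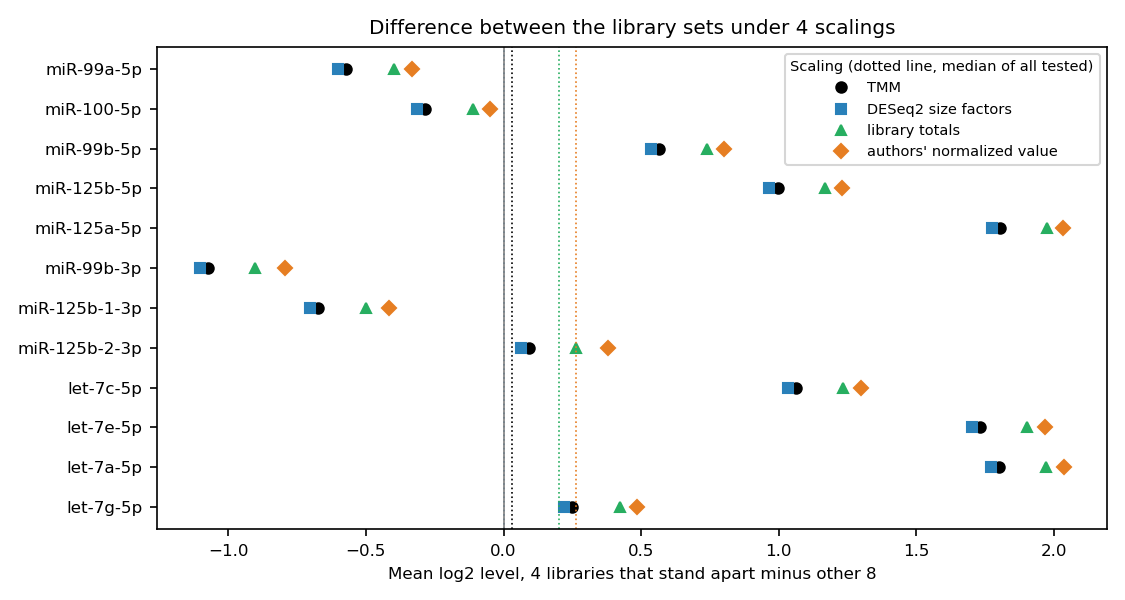
Mean log2 level in the 4 libraries that stand apart minus that in the other 8 (horizontal axis), for the members, the opposite strands and let-7 partners, under 4 scalings shown by symbol, with dotted lines at the median of all 431 miRNAs. With TMM, miR-125a-5p lies at 1.80 and miR-99a-5p at −0.57, and each scaling moves all points by about the same amount.

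Ratios of the miR-125 members to the miR-99/100 members of their clusters also differed between these 4 libraries and the other 8. A ratio of counts within a library needs no scaling. miR-125b to miR-99a, both encoded on chromosome 16, was 0.858 to 1.13 in the 4 libraries and 0.304 to 0.378 in the other 8. miR-125b to miR-100, both encoded on chromosome 9, was 0.606 to 0.831 against 0.255 to 0.353. miR-125a to miR-99b, whose hairpins lie 554 bases apart on chromosome 17, was 0.310 to 0.428 against 0.128 to 0.195. All 3 ratios were thus higher in the 4 libraries, without overlap. Both ratios of miR-125b share its count, which sums its loci on chromosomes 16 and 9. Of these 3 ratios, only that of miR-125a to miR-99b therefore compares products of a known cluster.

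The cluster partners let-7a, let-7c and let-7e went with the miR-125 members, whereas let-7g-5p differed by only 0.25 in log2 level between the sets. let-7c to miR-99a was 6.92 to 12.7 in the 4 libraries against 2.11 to 3.64 in the other 8, let-7a to miR-100 was 4.93 to 6.50 against 1.08 to 1.84, and let-7e to miR-99b was 2.95 to 4.20 against 1.31 to 2.17. let-7e to miR-125a was instead 8.0 to 9.8 in the 4 against 7.6 to 11.2 in the 8 and overlapped. In log2 level let-7a differed by 1.80, let-7e by 1.73 and let-7c by 1.06 between the sets. let-7 miRNAs are regulators of developmental timing, and Lin28 proteins block their processing.

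Within the families the ratios changed as well. miR-125a to miR-125b was 0.335 to 0.412 in the 4 libraries against 0.191 to 0.230 in the other 8, and miR-99b to miR-99a was 0.779 to 1.20 against 0.384 to 0.546. miR-99a to miR-100 overlapped, at 0.607 to 0.875 against 0.799 to 0.978. These 3 ratios and those of the clusters overlapped between all training groups.

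The opposite strands of 2 hairpins also separated the libraries. A hairpin yields a 5p and a 3p strand, one of which is usually discarded. miR-99b-5p to miR-99b-3p, 2 products of 1 hairpin, was 93.6, 103, 97.7 and 97.8 in the libraries of F, E, RE and C that stood apart. In the other 8 it was 27.7 to 37.2. The 5p strand was higher in the 4 libraries (log2 difference 0.57) and the 3p strand lower (−1.07), with 64 to 88 tags of miR-99b-3p in the 4 and 79 to 224 in the 8. miR-125b-5p to miR-125b-1-3p was 53.0 to 68.1 against 14.1 to 26.0, and here too the 3p strand was lower in the 4 libraries (−0.67). This second ratio is not one of the strands of a single hairpin, since miR-125b-5p also counts tags of the Mir125b-2 locus.

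Not every opposite strand behaved so. miR-125b-2-3p, from the second miR-125b locus, had a log2 difference of 0.09 between the sets. The passenger strands let-7e-3p and let-7c-1-3p were higher in the 4 libraries, by 1.33 and 1.48. miR-99a-3p, miR-100-3p and miR-125a-3p reached at most 1.12, 2.31 and 5.27 CPM in any library, and the filter left them out of the tests.

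**Figure D4:**
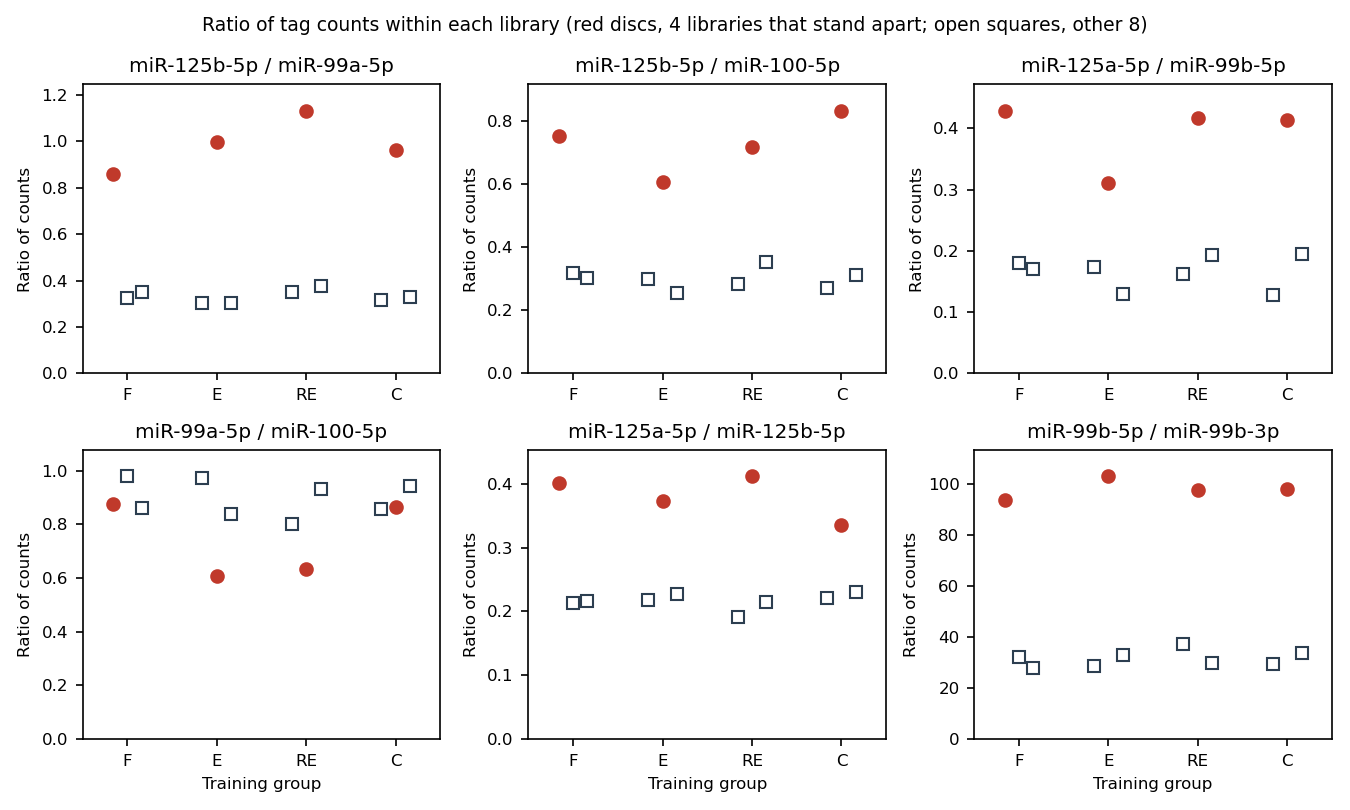
Ratio of tag counts within each library (vertical axes, linear, from 0) for 6 pairs, by training group; red discs are the 4 libraries that stand apart and open squares the other 8. In the pair of strands of the Mir99b hairpin the discs sit at 93.6 to 103 and the squares at 27.7 to 37.2.

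The 3p strands of the miR-125b loci differ in sequence and so tell the loci apart. miR-125b-1-3p to miR-125b-2-3p was 3.49, 3.69 and 9.37 in F, 11.2, 7.93 and 7.04 in E, 6.04, 5.67 and 6.31 in RE and 15.1, 2.84 and 8.95 in C. RE and E did not overlap, and all other pairs of groups did. Every other ratio given here overlapped between all groups. For scale, 4.18% of the 431 miRNAs lay wholly higher and 3.48% wholly lower in level in RE against E. The separation of the ratio was not tested. The ratio rests on 13 to 55 tags of miR-125b-2-3p per library. miR-125b-2-3p itself had 39, 35 and 35 tags in F and 18, 14 and 23 tags in E, and its log2 fold change in E against F was −0.93 (SE 0.40, unadjusted p = 0.0415, edgeR adjusted p = 0.996).

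Of the tests on the 3 other opposite strands, the 5 let-7 partners and passengers and the 2 relatives that passed the filter, 0 passed an adjusted p of 0.05 with edgeR. The test of miR-125b-2-3p was the single one with an unadjusted p under 0.05.

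How alike 2 miRNAs were was measured by the standard deviation of their log2 ratio over libraries, which needs no scaling. For the 10 pairs of members it was 0.22 to 1.18 over 12 libraries and 0.082 to 0.26 over the 8, and 10 of 10 pairs had the smaller value in the 8. The fall was general: the median over 387 annotated miRNAs set against a member was 0.52 to 0.94 over 12 libraries and 0.29 to 0.32 over the 8. Counted from the closest, miR-125b stood at place 112 of 387 and miR-125a at 79 for miR-99b over the 8 libraries, so those pairs were not among the closest. The closest pair of members over the 8 libraries was miR-125a and miR-125b at 0.082, where counting error alone would give 0.059. miR-99a to miR-125a had 0.10 over the 8 libraries and 1.18 over 12, the widest change of a pair.

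**Figure D5:**
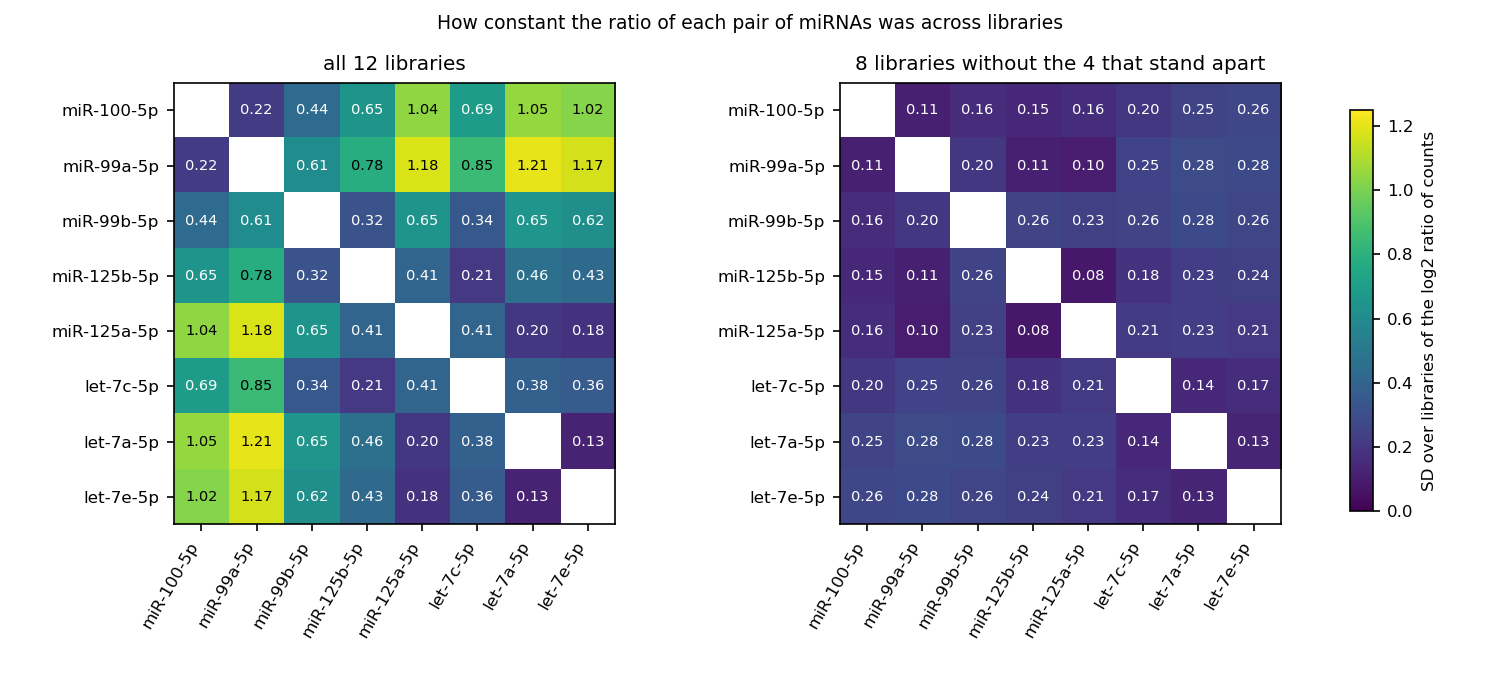
Standard deviation over libraries of the log2 ratio of counts for each pair of members and let-7 partners (number and colour in each cell), over 12 libraries on the left and over the 8 without those that stand apart on the right. Pairs of miR-99a-5p or miR-100-5p with miR-125a-5p, let-7a-5p or let-7e-5p exceed 1 on the left, and the highest value on the right is 0.28.

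Over the 12 libraries the miRNAs most alike in pattern were mostly not of the same family, by the same measure over 387 annotated miRNAs. For miR-125a they were let-7e-5p (0.18), let-7d-5p (0.19) and let-7a-5p (0.20), and for miR-125b they were miR-1839-5p (0.15), miR-346-5p (0.15) and miR-329-3p (0.17). For miR-99a they were miR-379-5p (0.17), miR-146b-5p (0.19) and miR-149-5p (0.19), with miR-100 at place 5. For miR-100 they were miR-532-5p (0.13), miR-3068-3p (0.14) and miR-107-3p (0.15), and for miR-99b miR-320-3p (0.16), miR-98-3p (0.17) and miR-383-5p (0.18). miR-98-3p rests on few tags, with a mean of 9.83 CPM. Counting error alone would give 0.42 for its ratio to miR-99b over the 8 libraries, more than the 0.16 seen there, so its place carries little weight. Over the 8 libraries the order was another one, in which miR-125a was the closest to miR-99a and to miR-125b. The closest to miR-125a was miR-191-5p (0.074), ahead of miR-125b. For miR-100 it was miR-92b-5p (0.094, where counting error alone would give 0.20), with miR-99a second. For miR-99b it was miR-344-3p (0.098), and its closest member, miR-100, was at place 8. Values of 1 library share its depth, and these likenesses are a description.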

How the data were processed

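The authors trimmed adapters, kept reads of at least 15 nt, predicted further miRNAs with miRDeep2, aligned reads to mouse precursors with Novoalign, and deposited tag counts per mature miRNA and library. CASAVA 1.8 and hg38, which is a human assembly, stand in the submitters' processing notes. Of the release of miRNA sequences, the version was not given in the sources used here. A second table deposited by the authors holds normalized values, rounded to whole numbers and treated here as a score. Repeats of another mature miRNA made up 109 of 1169 lines and were dropped, so that 1060 miRNAs remained, among them 307 predicted. Columns of unknown sample numbered 0. The authors' fold changes and p-values were not used.

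Tests on the counts used edgeR 4.0.16 in R 4.3.3 (TMM, filterByExpr with a minimum count of 10, quasi-likelihood test, all 12 libraries in 1 fit with the group as the only term), since the study's methods name edgeR. Benjamini-Hochberg adjustment ran over the 431 miRNAs tested, 43 of them predicted. In the 8 libraries 424 were tested. Groups came from the sample labels. Replicates are separate mice and differed by more than counting error, with a chi-square of 34.4 to 1000 per degree of freedom. Fits were tested on simulated counts with a lower dispersion than the 0.184 of these data and without libraries that stand apart. That test therefore does not show how the main fit performs on these libraries.

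The miRNAs named are the 5 members, their opposite strands, cluster partners and relatives, the 3 miRNAs most alike to each, and those that marked the library sets. Of the partners let-7a-2-3p was not analysed here. Relatives were miR-351-5p, miR-10a-5p and miR-10b-5p. Marker lists were neuron, oligodendrocyte, endothelial, vessel wall, erythrocyte, leukocyte and microglia, and choroid plexus. Members and lists were chosen with earlier results of these data known.

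Same-numbered libraries of E and C deviated from their group means together, with correlations of 0.453, 0.736 and 0.546. Those of F and C had −0.724, −0.533 and 0.628, and those of E and F −0.569, −0.618 and 0.487. The library that stands apart is number 2 in E and C but number 1 in F, and these signs follow its number. The correlations therefore cannot show whether equal numbers mark paired mice.

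Alternatives were DESeq2 1.42.0, edgeR's exact test, DESeq2's size factors or library totals, no filter (at least 1 count), a mean count of 50 or more, only the groups compared, annotated miRNAs alone, limma 3.58.1 on log2 of the authors' normalized value plus 1 or 0.5, which understates changes of low values, the split of the libraries as a term, the other 8 alone, a replicate block and each replicate left out. Scalings of the difference between library sets and the spread of ratios in the 8 libraries were chosen after seeing the data.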

Additional observations from a re-analysis of the deposited data

How the results depend on the processing

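The counts of members called were 0 in all 6 comparisons under every alternative that was run for them, by an adjusted p and by the study's limits. Of the 6 fold changes that led a comparison, miR-99a in RE against F (−0.24) stayed negative under each alternative that was run for it, from −0.41 to −0.044 with 1 replicate left out, and the other 5 took the other sign under some. miR-125a in F against C (0.12) was −0.040 with library totals, −0.0077 with a mean count of 50 and −0.018 with limma at both pseudocounts and without a filter. miR-125a in RE against E (0.22) was −0.12 with limma at both pseudocounts and without a filter and −0.095 in the 8 libraries. With 1 replicate left out, miR-125a ranged from −0.77 to 0.96 in F against C, from −0.90 to 0.66 in E against F and from −0.82 to 0.89 in RE against E, miR-99b from −0.039 to 0.38 in E against C and miR-99a from −0.33 to 0.039 in RE against C. The sign turned in F against C without F replicate 1, C replicate 1 or C replicate 3, in E against F without F replicate 1, E replicate 1 or E replicate 3, in RE against E without E replicate 1, E replicate 3 or RE replicate 4, in E against C without E replicate 2 and in RE against C without RE replicate 4. The cause was not tested.

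With the replicate block in the C, F and E libraries 0 members were called, and the largest member value was that of miR-125a in E against F (−0.37, SE 0.70, edgeR adjusted p = 0.999). It changed no call of a member. All miRNAs past the study's limits numbered 4, 1 and 4 in F against C, E against C and E against F, against 5, 3 and 7 without it. For the 3 comparisons of RE no such fit was run, since RE shares only number 3 with the other groups and its estimate would rest on that library.

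Counts over all miRNAs past the study's limits moved more than those of the members. They were 5, 3, 12, 7, 3 and 4 in F against C, E against C, RE against C, E against F, RE against F and RE against E. Without a filter they were 9, 12, 20, 17, 15 and 17, with a mean count of 50 they were 3, 1, 6, 4, 0 and 3, with the term for the libraries 7, 7, 14, 9, 7 and 10, in the 8 libraries 10, 6, 16, 13, 10 and 17, with limma and a pseudocount of 1 they were 2, 1, 6, 6, 3 and 4, and with the groups of a comparison alone 3, 2, 9, 6, 2 and 8. Past an adjusted p they numbered 0 in each comparison with edgeR's quasi-likelihood test, but 4, 0, 5, 4, 1 and 2 without a filter, 0, 0, 7, 1, 0 and 1 with the term, 0, 0, 4, 1, 0 and 3 in the 8 libraries, 1, 0, 3, 0, 0 and 1 with DESeq2 and 1, 0, 1, 0, 0 and 0 with the exact test. Without F replicate 2 they were 1, 0, 0, 1, 0 and 0.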

Other observations

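Relatives outside the members moved between the library sets in both directions. miR-351-5p, which carries the miR-125 seed, had 3.42 to 12.3 CPM in the 4 libraries that stand apart and 1.38 to 3.48 CPM in the other 8. miR-10b-5p, related to miR-99 and miR-100 by sequence, had 0 to 3.23 CPM in the 4 libraries and 3.48 to 22.4 CPM in the other 8. miR-10a-5p, which has the seed of miR-10b-5p, overlapped, at 1.44 to 6.15 CPM in the 4 and 3.87 to 10.0 CPM in the 8. All of these rest on few tags. miR-351-5p and miR-10b-5p were among the 406 miRNAs that drew the split. Outside these families the strands of the Mir126a hairpin, whose products are abundant in endothelial cells, also parted: miR-126a-5p had 406 to 495 CPM in the 4 libraries and 187 to 287 CPM in the other 8, whereas miR-126a-3p had 4427 to 6297 CPM in the 4 and 9626 to 11387 CPM in the 8. This hairpin was singled out after its values were seen, its strands also helped to draw the split, and the cause was not tested.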
